A study of Homo sapiens with 6 samples.

Results

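The genes described here are 52 components of the extracellular matrix other than collagens and laminins, with the enzymes that crosslink or modify them, chosen by name out of the 62703 genes listed for RNA-seq of PANC-1 cells. PANC-1 is an established human pancreatic ductal adenocarcinoma line, and DKK1-SE is a super-enhancer, a cluster of strong enhancers, near *DKK1* on chromosome 10. In the study, its component e1 was deleted with CRISPR/Cas9 to study the function of DKK1-SE. The WT group (genotype WT, treatment Control) and the DKK1-SE-KO group (genotype DKK1-SE Knockout, treatment Gene Editing) hold 3 biological replicates each. The study obtained a single homozygous clone, so the deletion and any other difference of that clone from WT cells cannot be told apart. The labels do not say whether the WT cells are a clone or the parental population. The labels call the replicates biological and the methods speak of independent replicates in general, but how these cultures were kept apart is not described, so the *p*-values measure the spread between these samples.

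Total expected counts were 21822314, 16475810 and 18803154 in WT replicates 1, 2 and 3 and 17359835, 20098086 and 17804764 in the DKK1-SE-KO replicates in the same order, which is the order of all values given for samples. Levels are TPM (transcript abundance scaled to the length of each gene and to the same sum in each sample), and fold changes are of DKK1-SE-KO over WT, fitted on the counts. In bulk RNA, fewer cells that express a gene and less RNA per cell cannot be told apart.

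The extracellular matrix is the network of secreted proteins and sugars around cells. Matricellular proteins such as tenascins, thrombospondins and SPARC bind matrix and receptors and tune adhesion rather than bear load. Fibrillins, fibulins and LTBP proteins build microfibrils and elastic fibers, and some LTBP proteins, though not all, hold latent TGF-beta. Nidogens, perlecan and agrin link the networks of basement membranes. Hyaluronan and proteoglycans fill and space the matrix, while lysyl oxidases crosslink collagen and elastin and prolyl and lysyl hydroxylases modify collagen before secretion. Pancreatic ductal adenocarcinoma is known for a dense matrix, much of which is made by stromal fibroblasts and not by the tumor cells.

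*DKK1*, the gene of the enhancer, was checked first. Its TPM was 229, 246 and 199 in WT and 66.8, 79.8 and 82.7 in DKK1-SE-KO. Every edited sample lay below every WT sample, as the labels have it. Its log2 fold change was -1.45 (standard error, SE, 0.112, adjusted p = 6.16e-06 in edgeR's quasi-likelihood test with Benjamini-Hochberg adjustment).

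The members that rose were mostly low in WT, and those that fell were mostly abundant. *SPP1*, *FBN2*, *SPARC*, *FBN1*, *TNC* and *VCAN*, with a mean TPM of at most 1.06 in WT, were higher in DKK1-SE-KO, while *TGFBI*, *MXRA8*, *SPOCK1*, *LTBP2*, *EFEMP1* and *MXRA5* were lower. Enough counts for the test were present for 39 of the 52 members. A gene was called when its adjusted *p*-value over all 15179 tested genes was under 0.05, and 22 of the 39 were called, which is 56.4% against 39.3% of all tested genes. They were 9 members higher in DKK1-SE-KO, where 19.8% of all tested genes were called higher, and 13 lower, where 19.5% were called lower. Of the 9, *SPP1*, *FBN2* and *VCAN* passed the count filter through the DKK1-SE-KO samples alone, so their calls are a description only. The members were chosen with earlier results of these data known, so their shares beside all tested genes are a description too. At the limits of the study, read as a log2 fold change of 1.2 or more in either direction with an unadjusted *p*-value under 0.05, the count was 14, of which 7 were higher and 7 lower (35.9% of tested members against 8.66% of all tested genes). Whether this limit was meant as a log2 or a linear value is in doubt. Read as a linear fold, a reading added after the data were seen, it takes in 24 members and 47.6% of all tested genes. The number of changed genes that the study reports lies nearer to the count of all genes under the log2 reading. The TPM of the groups did not overlap for 26 of the tested members, against 44.2% of all tested genes. The median log2 fold change was -0.07 over the tested members and 0.03 over all tested genes, and the median absolute value was 0.77 and 0.38. With a GC-content offset the median of the members was -0.29 and that of all genes 0.01, with 9 members higher and 18 lower, where 3041 of all 15167 genes in that fit were higher and 3176 lower. With limma on log2(TPM + 1) and log2(TPM + 0.1) the members had medians of -0.18 and -0.28. Neither the median nor the median absolute value of the members moves with the size fitted for *FBN2*, the member with a single WT count. With a log2 fold change of 1 or more in either direction and no overlap in addition to the call, 16 members remained, 7 higher and 9 lower, against 10.6% of all tested genes.

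**Figure D1:**
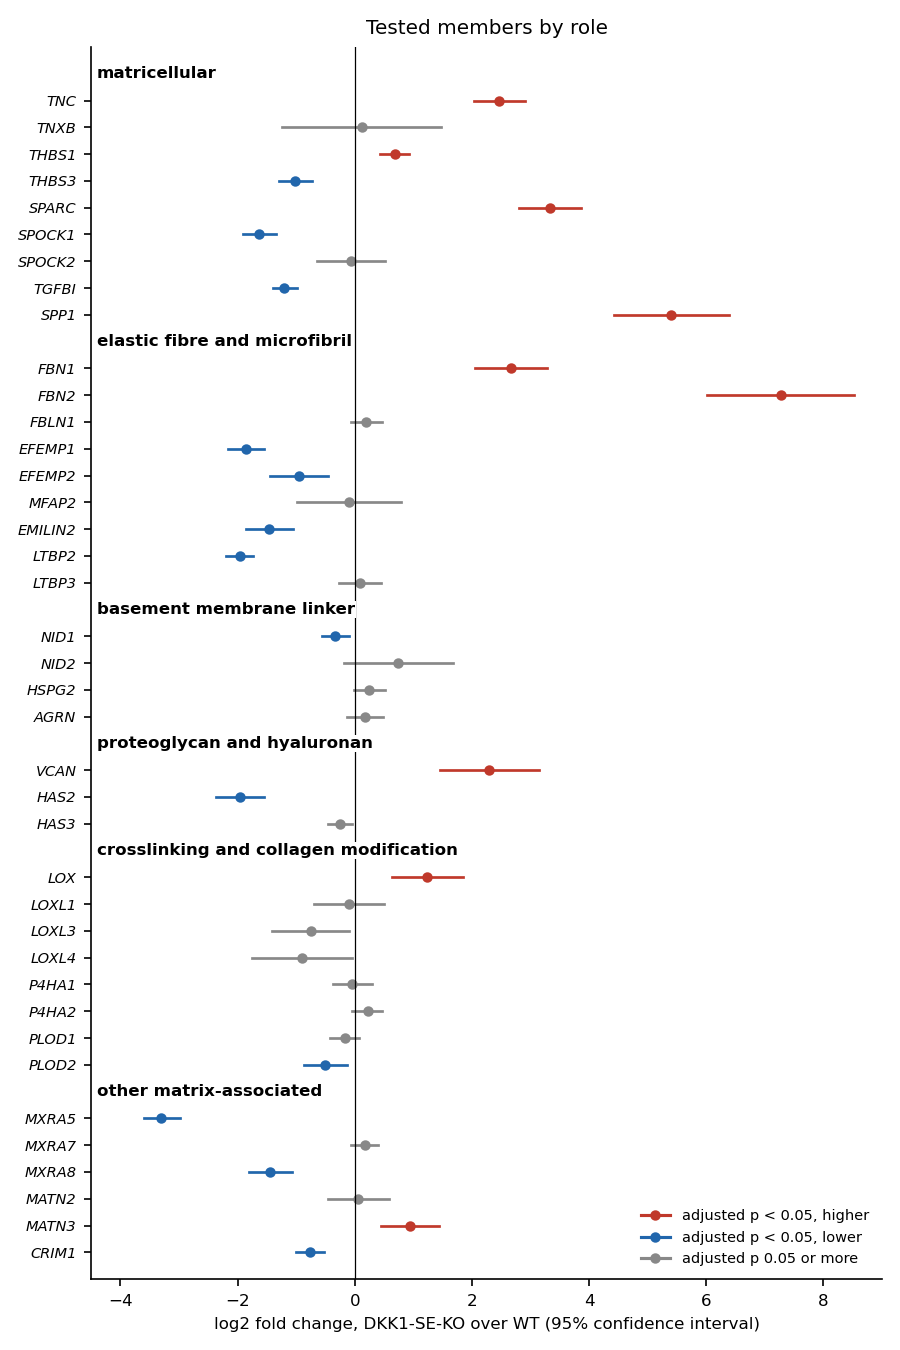
Log2 fold change of DKK1-SE-KO over WT (horizontal axis) of the 39 tested members by role, with bars for 95% confidence intervals and 3 samples per group. Red and blue mark the 9 higher and 13 lower members with an adjusted p-value under 0.05, and the fitted value of *FBN2* rests on 1 WT count.

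The split by level can be given in numbers. With a mean TPM under 1 in WT there were 23 members, 10 of them tested, and the 6 called ones were all higher. Among all tested genes of that level, 26.7% were higher and 5.06% lower. A gene that is low in WT passes the count filter more readily when it is high in DKK1-SE-KO, and *SPP1*, *FBN2* and *VCAN* passed through the DKK1-SE-KO samples alone, so this count is a description only. With a mean TPM of 50 or more, 9 members were tested, and the 5 called ones were all lower. Higher and lower genes made up 17.5% and 22% of all 2451 tested genes of that level. The members of that level that fell were *TGFBI*, *CRIM1*, *MXRA8*, *PLOD2* and *SPOCK1*. The call of *PLOD2* was lost with a GC-content offset, where its log2 fold change was -0.05.

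Promoters of all members with an entry were searched for 2 motifs, the AP-1 motif TGANTCA and the TEAD motif GGAATG, each on both strands, in RefSeq windows of 250 bases before to 50 bases after a start site (GRCh38.p14). The windows gave 56 promoters for 41 of the 52 members, and *AGRN*, *CRIM1*, *DCN*, *EFEMP1*, *ELN*, *HAS2*, *LUM*, *MATN2*, *MFAP4*, *MFAP5* and *SPOCK1* had no entry. The AP-1 motif was found in 3 of the member promoters (5.36%, against 7.71% of all 35116 promoters and 5.24% of those of tested genes), of which *EMILIN2* alone belonged to a called member. The TEAD motif was found in 11 (19.6%, against 14.0% of all promoters and 11.3% of those of tested genes). It stood in 4 of the 11 promoters of higher members and in 1 of the 12 promoters of lower members. The called members without an entry, *CRIM1*, *EFEMP1*, *HAS2* and *SPOCK1*, were all lower, so the lower side is incomplete. A match is a run of letters and does not show that a factor binds there. The 5 promoters of called members with a match are printed 5′ to 3′ on the strand of the gene, in lower case with the matches in capitals, to show where the matches lie. They are those of *EMILIN2* (chr18:2846756-2847055, plus strand), *SPARC* (chr5:151686866-151687165, minus strand), *FBN1* (chr15:48644921-48645220, minus strand), *THBS1* (chr15:39580829-39581128, plus strand) and *MATN3* (chr2:20012619-20012918, minus strand).
EMILIN2: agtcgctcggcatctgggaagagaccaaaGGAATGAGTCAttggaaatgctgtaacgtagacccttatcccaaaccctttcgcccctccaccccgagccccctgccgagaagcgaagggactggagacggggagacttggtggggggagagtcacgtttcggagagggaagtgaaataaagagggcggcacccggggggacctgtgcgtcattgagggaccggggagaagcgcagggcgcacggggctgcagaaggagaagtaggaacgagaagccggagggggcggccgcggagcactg
SPARC: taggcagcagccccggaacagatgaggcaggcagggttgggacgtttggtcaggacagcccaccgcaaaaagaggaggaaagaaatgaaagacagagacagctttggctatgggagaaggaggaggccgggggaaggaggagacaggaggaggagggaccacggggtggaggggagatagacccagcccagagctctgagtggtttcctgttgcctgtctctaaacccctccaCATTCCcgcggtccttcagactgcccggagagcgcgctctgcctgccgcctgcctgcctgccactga
FBN1: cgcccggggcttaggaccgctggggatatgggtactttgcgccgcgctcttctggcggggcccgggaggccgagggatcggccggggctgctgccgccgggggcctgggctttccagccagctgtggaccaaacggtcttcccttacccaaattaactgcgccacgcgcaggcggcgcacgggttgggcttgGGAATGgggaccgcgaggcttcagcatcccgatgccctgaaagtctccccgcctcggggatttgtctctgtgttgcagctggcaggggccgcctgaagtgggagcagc
THBS1: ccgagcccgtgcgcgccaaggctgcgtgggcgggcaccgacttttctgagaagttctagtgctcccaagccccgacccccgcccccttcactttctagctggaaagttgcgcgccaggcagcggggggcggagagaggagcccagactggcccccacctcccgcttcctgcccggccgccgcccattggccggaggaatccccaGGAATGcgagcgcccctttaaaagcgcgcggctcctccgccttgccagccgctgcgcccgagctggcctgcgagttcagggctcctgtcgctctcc
MATN3: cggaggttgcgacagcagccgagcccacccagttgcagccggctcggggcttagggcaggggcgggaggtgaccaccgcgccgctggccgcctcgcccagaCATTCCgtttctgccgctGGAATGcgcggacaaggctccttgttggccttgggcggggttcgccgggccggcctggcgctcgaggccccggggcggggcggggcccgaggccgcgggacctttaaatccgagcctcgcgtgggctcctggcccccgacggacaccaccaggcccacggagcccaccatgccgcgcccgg

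In the *EMILIN2* promoter the motifs overlap in the letters TG, with the TEAD match beginning 221 bases and the AP-1 match 217 bases before the start site. The match of *SPARC* begins 17 bases before its start site, that of *THBS1* 46 bases and that of *FBN1* 58 bases before theirs. *MATN3* carries both orientations, at 149 and 131 bases before its start site.

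Of the 13 matricellular genes, 9 were tested, 4 were higher and 3 lower (77.8% of those tested were called, against 39.3% of all tested genes). *TNC* (ENSG00000041982, chromosome 9) encodes tenascin C, which modulates adhesion to fibronectin. Its TPM was 0.56, 0.89 and 0.40 in WT and 2.24, 1.89 and 2.34 in DKK1-SE-KO. The highest WT sample was below the lowest edited sample, and the log2 fold change was 2.47 (SE 0.195). That is 5.54-fold on counts, while the ratio of mean TPM was 3.50. *SPARC* (ENSG00000113140), a collagen-binding glycoprotein, had a TPM of 1.24, 0.79 and 1.14 in WT and of 7.15, 5.41 and 5.50 in DKK1-SE-KO. All 3 edited samples were high and the groups were far apart, with a log2 fold change of 3.33 (SE 0.242). Here too the fold on counts, 10.1, was larger than the ratio of mean TPM, 5.70. *SPP1* (ENSG00000118785), which encodes the integrin ligand osteopontin, stood at 0.18, 0.18 and 0.02 TPM in WT and at 4.56, 5.95 and 6.57 TPM in DKK1-SE-KO. It was near 0 in each WT sample and clearly present in each edited one. Only 5 counts in WT stood against 211, a ratio of 45.8 with an exact 95% counting interval of 19.3 to 143, which covers counting error only. The fitted log2 fold change of 5.40 depends on the prior count added to such low values. Without WT replicate 2, which held 3 of these WT counts, it was 6.16.

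*SPOCK1* (ENSG00000152377), a testican proteoglycan, went the other way, with a TPM of 68.5, 73.7 and 80.8 in WT and 15.6, 22.9 and 27.5 in DKK1-SE-KO. All edited samples were low, replicate 1 the lowest, and no values overlapped. On the counts, the log2 fold change was -1.63 (SE 0.127). *TGFBI* (ENSG00000120708), a TGF-beta-induced adhesion protein and the most abundant member in both groups, had 314, 308 and 317 TPM in WT and 116, 127 and 137 TPM in DKK1-SE-KO. The WT samples were nearly alike and the edited samples were all far below them, with a log2 fold change of -1.20 (SE 0.0933). For *THBS3* (ENSG00000169231), a pentameric thrombospondin, the TPM was 11.2, 12.0 and 11.1 in WT and 7.11, 5.94 and 5.87 in DKK1-SE-KO. Each edited sample was below each WT sample, and the log2 fold change was -1.02 (SE 0.128). The antisense gene *THBS3-AS1* and *MTX1* overlap it, and since the strand setting of the counting is not given in the sources used here, shared reads cannot be told apart. Over these 6 genes, the adjusted *p*-value was between 4.19e-06 and 1.67e-04 in edgeR's quasi-likelihood test with Benjamini-Hochberg adjustment. *SPP1* passed the count filter through the DKK1-SE-KO samples alone, so its fold change and test are a description only. Genes with no overlap of TPM were chosen here, so each direction held in 3 of 3 edited samples by that choice.

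*THBS1*, which encodes the activator of latent TGF-beta thrombospondin 1, had a smaller change and is among the called members of that kind with the highest levels. Its TPM was 20.7, 22.3 and 25.7 in WT and 30.4, 27.2 and 37.5 in DKK1-SE-KO. The lowest edited value was just above the highest WT value, and the log2 fold change was 0.68 (SE 0.112, adjusted p = 9.08e-04 in edgeR's quasi-likelihood test with Benjamini-Hochberg adjustment). With limma on log2(TPM + 1) or log2(TPM + 0.1) in place of the counts, the adjusted *p*-value after Benjamini-Hochberg adjustment was 0.0515 in both, the highest over the alternatives, where edgeR and DESeq2 gave values down to 1.84e-06. *SPOCK2*, on chromosome 10, had a 95% confidence interval of the log2 fold change of -0.64 to 0.51 around -0.07. *TNXB*, whose reads can be shared with its near-identical copy *TNXA*, had 12, 6 and 22 counts in WT and 16, 21 and 3.17 in DKK1-SE-KO, and its interval was -1.24 to 1.48, wide at this depth. *THBS2*, *THBS4*, *COMP* and *POSTN* were not tested, with at most 9 counts in any sample. *POSTN*, which encodes periostin, a fibroblast product, had 0, 0 and 1 counts in WT and 0, 1 and 1 in DKK1-SE-KO.

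**Figure D2:**
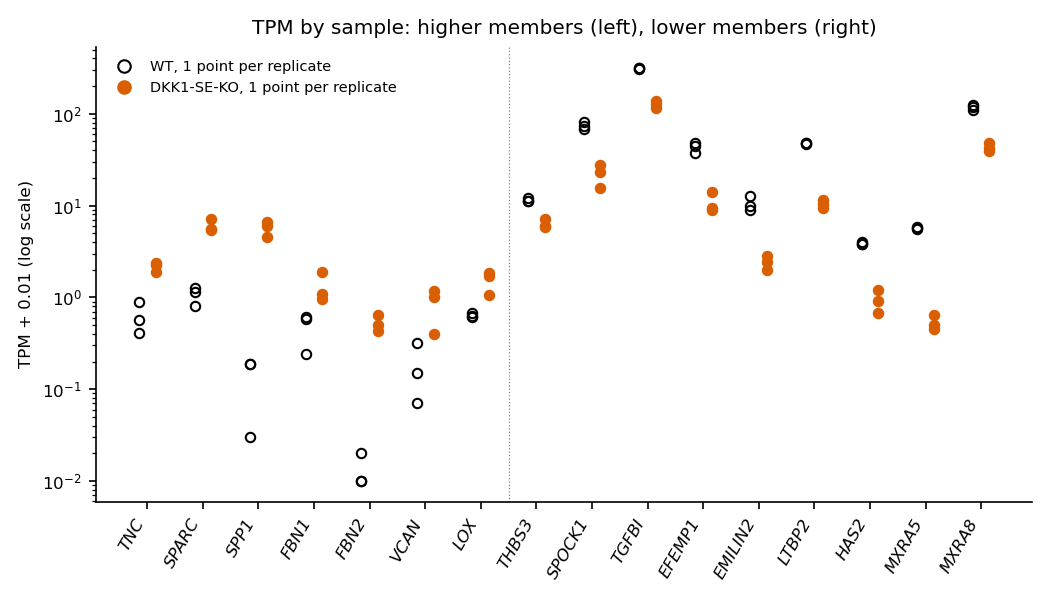
TPM + 0.01 on a log scale (vertical axis) of the 16 called members whose log2 fold change was 1 or more in either direction, with no overlap, 1 point per sample, open for WT and filled for DKK1-SE-KO. The 7 higher members on the left lie under 1.3 TPM in WT, and the 9 lower members on the right span 3.78 to 317 TPM in WT.

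Of the 14 genes of elastic fibers and microfibrils, 9 were tested, 2 were higher and 4 lower (66.7% called, against 39.3% of all tested genes). *FBN1* and *FBN2*, which encode fibrillins, the backbone of microfibrils, were higher, and the lower ones were fibulin-like proteins, an emilin and a latent TGF-beta binding protein. *FBN2* (ENSG00000138829) had 0.00, 0.01 and 0.00 TPM in WT and 0.49, 0.64 and 0.42 TPM in DKK1-SE-KO. A single read stood in the WT samples, in replicate 2, while all edited samples held the transcript. The counts of 1 and 198 give a ratio of 215 with an exact 95% counting interval of 38.2 to 8539. *FBN1* (ENSG00000166147) had 0.57, 0.23 and 0.60 TPM in WT and 0.94, 1.07 and 1.89 TPM in DKK1-SE-KO. Its groups did not overlap, and edited replicate 3 was the highest by far. The log2 fold change fitted on counts was 2.66 (SE 0.280), from counts of 13, 16 and 24 against 98, 109 and 107. Mean TPM rose less than the counts did, 2.79-fold against 5.92-fold, and TPM, unlike counts, also depends on the transcript lengths used for each library.

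*LTBP2* (ENSG00000119681), a microfibril protein of the LTBP family, had 46.5, 48.2 and 48.3 TPM in WT and 10.4, 9.31 and 11.4 TPM in DKK1-SE-KO. Each group was tight and the groups were far apart, with a log2 fold change of -1.96 (SE 0.102). *EFEMP1* (ENSG00000115380), which encodes fibulin 3, had 47.8, 44.5 and 37.5 TPM in WT and 8.87, 9.47 and 13.9 TPM in DKK1-SE-KO. The edited samples were all low, replicate 3 the highest of them, and the log2 fold change was -1.85 (SE 0.141). Tested genes within 5 Mb of *EFEMP1* had a median log2 fold change of -0.74 (22 genes on chromosome 2), and the part of this regional shift in its fall was not tested. *EMILIN2* (ENSG00000132205), an elastin microfibril interface protein whose promoter carries the AP-1 match printed earlier, had 8.95, 9.79 and 12.6 TPM in WT and 2.83, 1.96 and 2.43 TPM in DKK1-SE-KO. Values of edited samples were all under those of WT, and the log2 fold change was -1.46 (SE 0.183). Mean TPM fell further than the counts, with WT over DKK1-SE-KO at 4.33 in TPM and 2.74 in the fit. Adjusted *p*-values of these 5 genes were between 3.77e-07 and 1.65e-04 in edgeR's quasi-likelihood test with Benjamini-Hochberg adjustment. *FBN2* passed the count filter through the DKK1-SE-KO samples alone, so its fold change and test are a description only. That 3 of 3 edited samples showed each direction follows from the choice of genes with no overlap of TPM.

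*EFEMP2*, which encodes fibulin 4, needed for elastic fiber assembly, had 4.71, 7.65 and 6.69 TPM in WT and 1.87, 2.64 and 3.16 TPM in DKK1-SE-KO, and all edited samples lay below WT. Its log2 fold change was -0.95 (SE 0.221, adjusted p = 0.00622 in edgeR's quasi-likelihood test with Benjamini-Hochberg adjustment). *LTBP3*, *FBLN1* and *MFAP2* were not called. *FBLN1*, which encodes fibulin 1, had 34.0, 33.0 and 34.3 TPM in WT and 38.4, 37.1 and 33.0 TPM in DKK1-SE-KO, and the groups overlapped. The 95% confidence interval of its log2 fold change was -0.06 to 0.46. Without DKK1-SE-KO replicate 3, its adjusted *p*-value was 0.0292 in edgeR's quasi-likelihood test with Benjamini-Hochberg adjustment, against 0.0292 to 0.802 over all alternatives. *LTBP3* had 40.2, 44.3 and 53.4 TPM in WT and 59.1, 52.5 and 39.4 TPM in DKK1-SE-KO. Edited replicate 1 was the highest and replicate 3 the lowest of all 6 samples, so the edited group spanned the WT group. With an offset for GC content, its log2 fold change of 0.09 became -0.32 (adjusted p = 0.00291 in edgeR's quasi-likelihood test with Benjamini-Hochberg adjustment, range over alternatives 0.00291 to 0.978), so no direction is given for it. *ELN*, which encodes elastin, and *MFAP4*, *MFAP5*, *FBLN2* and *FBLN5* were not tested, with 0 to 14 counts per sample. *ELN* had 0, 3 and 2 counts in WT and 2, 0 and 2 in DKK1-SE-KO, so transcripts of this core component of elastic fibers did not exceed a few reads.

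The 4 linkers of basement membranes were all tested, and 1 was called. *AGRN*, which encodes agrin, and *HSPG2*, which encodes perlecan, both heparan sulfate proteoglycans, were among the abundant members and were not called. *AGRN* had 69.1, 80.1 and 85.7 TPM in WT and 94.1, 80.7 and 75.2 TPM in DKK1-SE-KO, and *HSPG2* had 60.8, 64.1 and 73.4 TPM and 77.5, 69.7 and 68.9 TPM. Both pairs of groups overlapped. The 95% confidence intervals of the log2 fold change were -0.13 to 0.49 for *AGRN* and -0.02 to 0.52 for *HSPG2*. With a GC-content offset, *AGRN* turned from 0.18 to -0.22 (adjusted p = 0.0332 in edgeR's quasi-likelihood test with Benjamini-Hochberg adjustment, range over alternatives 0.0332 to 0.954). *NID1*, which encodes nidogen 1, the bridge between laminin and collagen IV, had 29.1, 31.0 and 33.8 TPM in WT and 22.7, 20.1 and 24.8 TPM in DKK1-SE-KO. No values overlapped, but the difference was small, with a log2 fold change of -0.33 (SE 0.104, adjusted p = 0.0268 in edgeR's quasi-likelihood test with Benjamini-Hochberg adjustment). The call was lost without WT replicate 2, WT replicate 3 or DKK1-SE-KO replicate 2, where the adjusted *p*-value was 0.0911, 0.132 and 0.108 in the same edgeR test with Benjamini-Hochberg adjustment, and with the replicate number as a block, where it was 0.0989 (range over alternatives 4.97e-04 to 0.132). *NID2*, its paralog, had a mean TPM of 0.50 ± 0.255 in WT and 0.39 ± 0.125 in DKK1-SE-KO (SD, n = 3). It was not called, and its log2 fold change fitted on counts was 0.74 (95% confidence interval -0.19 to 1.68).

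Among the 7 genes of proteoglycans and hyaluronan synthesis, 3 were tested, 1 was higher and 1 was lower (66.7% called, against 39.3% of all tested genes). *VCAN* (ENSG00000038427) encodes versican, a large hyaluronan-binding proteoglycan, and had 0.14, 0.31 and 0.06 TPM in WT and 1.16, 0.39 and 0.99 TPM in DKK1-SE-KO. Edited replicate 2 was only a little above the highest WT sample, and replicates 1 and 3 were well above it. Counts were 10, 7 and 8 against 29, 32 and 53, and the log2 fold change was 2.29 (SE 0.383, adjusted p = 9.58e-04 in edgeR's quasi-likelihood test with Benjamini-Hochberg adjustment). *VCAN* passed the count filter through the DKK1-SE-KO samples alone, so its fold change and test are a description only. *HAS2* (ENSG00000170961), a hyaluronan synthase, had 4.02, 3.80 and 3.78 TPM in WT and 0.90, 0.66 and 1.18 TPM in DKK1-SE-KO. All edited samples were low and the WT samples close together. Its log2 fold change was -1.96 (SE 0.191, adjusted p = 3.16e-05 in edgeR's quasi-likelihood test with Benjamini-Hochberg adjustment). The antisense gene *HAS2-AS1* overlaps it and could share its reads. The median log2 fold change of the 37 tested genes within 5 Mb was -0.66, and the part of this shift in the result was not tested.

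*HAS3*, the synthase with the higher level, had 49.6, 47.5 and 54.1 TPM in WT and 39.9, 36.6 and 38.4 TPM in DKK1-SE-KO. Although no TPM values overlapped, its log2 fold change of -0.25 missed the threshold (adjusted p = 0.0617 in edgeR's quasi-likelihood test with Benjamini-Hochberg adjustment). It passed with limma on either TPM scale, with a GC-content offset, with library size alone and without DKK1-SE-KO replicate 1 or 3, with adjusted *p*-values from 3.96e-04 to 0.206 over all alternatives (Benjamini-Hochberg). The small leucine-rich proteoglycans were near 0. *BGN* (biglycan) had 7, 2 and 7 counts in WT and 3, 1 and 1 in DKK1-SE-KO, and *LUM* (lumican) had 5, 3 and 1 and 0, 1 and 0. *DCN* (decorin) had 0, 0 and 4 counts in WT and none in DKK1-SE-KO, and *FMOD* (fibromodulin) had 1 count in 1 of the 6 samples. These genes are typical of fibroblasts, and none of these 4 members passed the count filter.

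All 8 genes of crosslinking and collagen modification were tested, and 1 was higher and 1 lower. *LOX* (ENSG00000113083), which encodes the lysyl oxidase that starts covalent crosslinks in collagen and elastin, had 0.67, 0.60 and 0.61 TPM in WT and 1.69, 1.05 and 1.81 TPM in DKK1-SE-KO. The WT samples were alike, and the lowest edited sample, replicate 2, was above all of them. Its log2 fold change was 1.24 (SE 0.273, adjusted p = 0.00464 in edgeR's quasi-likelihood test with Benjamini-Hochberg adjustment). The paralog *LOXL1* had 5.25, 4.92 and 7.52 TPM in WT and 6.55, 2.79 and 4.63 TPM in DKK1-SE-KO, with overlap. Both *LOXL3* and *LOXL4* had negative log2 fold changes, -0.75 (95% confidence interval -1.41 to -0.09) and -0.90 (-1.75 to -0.05), that missed the threshold. Their adjusted *p*-values were 0.0691 and 0.0860 in edgeR's quasi-likelihood test with Benjamini-Hochberg adjustment. For *LOXL3*, TPM was 0.86, 1.50 and 1.18 in WT and 1.00, 0.69 and 0.59 in DKK1-SE-KO. Edited replicate 1 lay within the WT range and the other edited samples below it. A GC-content offset gave it a log2 fold change of -0.93 and an adjusted *p*-value of 0.0256 in the same edgeR test with Benjamini-Hochberg adjustment (range over alternatives 0.0256 to 0.219). *LOXL4*, on chromosome 10, had 1.01, 1.05 and 0.76 TPM in WT and 0.72, 0.24 and 0.40 TPM in DKK1-SE-KO, and edited replicate 1 nearly reached the WT values. It was called with a GC-content offset (log2 fold change -1.17), with that offset and a replicate block (-1.22), without the count filter (-0.91) and without edited replicate 1. Without that replicate its log2 fold change was -1.46, with an adjusted *p*-value of 0.0109 in the same edgeR test with Benjamini-Hochberg adjustment (range over alternatives 0.0109 to 0.257).

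*PLOD2*, a lysyl hydroxylase that modifies collagen telopeptides, had 88.9, 92.4 and 84.4 TPM in WT and 40.2, 52 and 78.5 TPM in DKK1-SE-KO. The edited samples varied widely, and replicate 3 came close to WT. The log2 fold change was -0.50 (SE 0.165, adjusted p = 0.0337 in edgeR's quasi-likelihood test with Benjamini-Hochberg adjustment). The call was lost without any 1 of the WT samples or of DKK1-SE-KO replicates 1 and 2, and the highest of those adjusted *p*-values, 0.102, came without WT replicate 2 (edgeR's quasi-likelihood test, Benjamini-Hochberg). With a GC-content offset the log2 fold change was -0.05 (adjusted p = 0.627 in edgeR's quasi-likelihood test with Benjamini-Hochberg adjustment), and the range over alternatives was 3.36e-04 to 0.682. *PLOD1*, the most abundant gene of the role, had 103, 109.6 and 118 TPM in WT and 94.1, 83.6 and 84.6 TPM in DKK1-SE-KO. TPM did not overlap, yet the log2 fold change of -0.17 fitted on counts was not called, with a 95% confidence interval of -0.42 to 0.08. It was called with limma on TPM and with a GC-content offset, with a log2 fold change of -0.40 in the last. *P4HA1* and *P4HA2*, catalytic subunits of prolyl 4-hydroxylase, which stabilizes the collagen triple helix, were not called. The 95% confidence intervals of their log2 fold changes were -0.37 to 0.29 and -0.04 to 0.47. TPM of *P4HA2* did not overlap, at 13.7, 13.4 and 14.4 in WT and 14.6, 14.7 and 15.1 in DKK1-SE-KO, with every edited sample a little above WT.

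Of the 6 other matrix-associated genes, 1 was higher and 3 were lower (66.7% called, against 39.3% of all tested genes). *MXRA5* (ENSG00000101825), on chromosome X, encodes a matrix remodelling-associated protein with leucine-rich repeats. It had 5.77, 5.60 and 5.65 TPM in WT and 0.44, 0.49 and 0.64 TPM in DKK1-SE-KO, and its WT samples were nearly identical. Every edited sample was low, with a log2 fold change of -3.30 (SE 0.140), and of all tested genes 47 had a lower log2 fold change. *MXRA8* (ENSG00000162576), a transmembrane protein with immunoglobulin domains, had 109, 118 and 125 TPM in WT and 48.5, 42.2 and 39.6 TPM in DKK1-SE-KO. The groups were far apart, with a log2 fold change of -1.44 (SE 0.166). The adjusted *p*-values were 1.35e-07 for *MXRA5* and 9.51e-05 for *MXRA8* in edgeR's quasi-likelihood test with Benjamini-Hochberg adjustment. *CRIM1*, which encodes a transmembrane protein that binds bone morphogenetic proteins, had 163, 165 and 166 TPM in WT and 81.8, 82.3 and 111 TPM in DKK1-SE-KO. All edited samples were below WT, replicate 3 the nearest. For *CRIM1* the log2 fold change was -0.77 (SE 0.112, adjusted p = 4.19e-04 in edgeR's quasi-likelihood test with Benjamini-Hochberg adjustment), while the 42 tested genes within 5 Mb had a median of -0.68. The part of this regional shift in its fall was not tested.

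*MATN3*, which encodes a matrilin, a filament-forming adaptor of cartilage, rose from a mean TPM of 1.22 ± 0.114 to 2.34 ± 0.184 (SD, n = 3), with 3 of 3 edited samples above WT. The fitted log2 fold change was 0.94 (SE 0.226). *MATN2* had 1.58, 1.12 and 1.24 TPM in WT and 0.92, 2.53 and 1.68 TPM in DKK1-SE-KO, which overlapped. *MXRA7* stayed within the WT range in all edited samples, between 43.9 and 46.4 TPM, and the 95% confidence interval of its log2 fold change was -0.06 to 0.40.

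By level, the first ranks held and several others shifted. *TGFBI* ranked 1 and *CRIM1* ranked 2 of 52 in both groups by mean TPM, and *TGFBI* made up 22% of the summed TPM of the members in WT and 14.0% in DKK1-SE-KO. *MXRA8* went from rank 3 to 9, *SPOCK1* from 7 to 14 and *LTBP2* from 10 to 18. In the other direction, *SPP1* went from rank 44 to 21 and *SPARC* from 29 to 20. *LTBP2* in DKK1-SE-KO, at 10.3 ± 1.03 TPM, did not differ beyond the spread from *EFEMP1*, its neighbor in that order at 10.7 ± 2.74 TPM (SD, n = 3). Summed over all members, TPM was 1383, 1418 and 1475 in WT and 900.3, 872 and 949.6 in DKK1-SE-KO, so these genes made up a smaller share of the transcripts in every edited sample than in any WT sample. Matricellular genes summed to 418, 420.4 and 439.7 TPM in WT and 184, 198 and 224 TPM in DKK1-SE-KO, with *TGFBI* the largest part. Linkers of basement membranes, led by *AGRN*, summed to 159, 176 and 193 TPM and 195, 171 and 169 TPM, which overlapped.

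Within families, the leading gene often held its place while its share moved. *THBS1* made up 64.1, 64.4 and 68.2% of the thrombospondin and *COMP* transcripts by TPM in WT and 80.3, 81.5 and 86.2% in DKK1-SE-KO, with *THBS3* as nearly all of the rest. *LOXL1* led the lysyl oxidases among the members in all 6 samples, though *LOXL2*, outside the members, stood higher at 80.5, 86.7 and 85.8 TPM in WT and 52, 47.5 and 48.3 TPM in DKK1-SE-KO. Tested genes within 5 Mb of *LOXL2* had a median log2 fold change of -0.75. Of the 4 member genes, *LOX* went from 8.60, 7.43 and 6.06% in WT to 17.0, 22 and 24.4% in DKK1-SE-KO. *FBN2* was 34.3, 37.4 and 18.2% of the TPM of the member fibrillins in DKK1-SE-KO and, at 1 read, close to none of it in WT. That sum holds *FBN1* and *FBN2* and leaves out *FBN3*, outside the members and not tested, with 0.10, 0.75 and 0.21 TPM in WT and 0.03, 0.03 and 0.07 TPM in DKK1-SE-KO. *P4HA1* held 57.7, 62.2 and 60.4% of the TPM of *P4HA1* and *P4HA2* in WT and 51.2, 52.6 and 61.7% in DKK1-SE-KO, which overlapped. *PLOD1* held 53.8, 54.3 and 58.2% of the TPM of *PLOD1* and *PLOD2* in WT and 70.1, 61.6 and 51.9% in DKK1-SE-KO, where replicate 3 fell below the WT range and the other replicates lay above it. *LTBP2* and *LTBP3* had nearly equal TPM in WT, and *LTBP3* led in each edited sample, with 85.1, 84.9 and 77.6% of the pair. *FBLN1* and *EFEMP1* likewise shared the fibulin transcripts in WT, and *FBLN1* held 77.7, 74.5 and 65.4% in DKK1-SE-KO against 39.3, 38.6 and 43.6% in WT. The shares of these last 2 families were chosen for description after the values were seen.

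Since whole regions can shift in a clone, each member was set beside the tested genes within 5 Mb. The median log2 fold change of the neighbors ranged from -0.74 for *EFEMP1* to 0.45 for *EFEMP2* and *LTBP3*. Some called members lay close to that median. *CRIM1* had -0.77 against -0.68, *PLOD2* -0.50 against -0.38 and *NID1* -0.33 against -0.22. Of the 22 called members, 8 had the sign of their neighbors. Some of these medians were near 0, such as 0.01 for *TGFBI* and 0.02 for *THBS1*. No share over all called genes is given here, so this count is a description only. *SPOCK2* and *P4HA1*, on chromosome 10 with *DKK1*, had neighbors with a median of 0.21 and 0.21, and *LOXL4* had -0.45.

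Other genes of the same pathways, listed by role with earlier results of these data known, give the surroundings of the members. Of these 121 genes, 79 were tested, 22 were higher and 26 lower (60.8% called, against 39.3% of all tested genes). Since the lists were chosen with those results known, this share is a description only. The median log2 fold change of the tested genes of these lists was -0.15. Other matrix glycoproteins had 9 higher and 8 lower of 26 tested (65.4% called). *FN1*, which encodes fibronectin, had 1.15, 1.53 and 2.06 TPM in WT and 1.42, 1.95 and 3.76 TPM in DKK1-SE-KO. These values overlapped, while its counts, 31.0, 17 and 15 in WT and 103, 137 and 136 in DKK1-SE-KO, did not. The log2 fold change fitted on the counts was 2.70 (SE 0.244). *CRISPLD2* and *EDIL3* were higher as well, with log2 fold changes of 1.50 and 1.35. *LTBP1*, a relative of *LTBP2* that tethers latent TGF-beta, had 31.8, 31.7 and 33.7 TPM in WT and 8.32, 8.21 and 10.4 TPM in DKK1-SE-KO. It was low in all edited samples, with a log2 fold change of -1.76 (SE 0.108), while tested genes within 5 Mb of it had a median of -0.65. The part of this regional shift in its fall was not tested. *CTHRC1* and *FSTL1* were lower, with -4.24 and -1.03. For *CTHRC1*, 148 counts in WT and 7 in DKK1-SE-KO give a ratio of WT over DKK1-SE-KO of 19.5 (exact 95% counting interval 9.21 to 49.2). It passed the count filter through the WT samples alone, so its fold change and test are a description only. The adjusted *p*-values of these 6 genes were between 1.16e-06 and 0.00136 in edgeR's quasi-likelihood test with Benjamini-Hochberg adjustment.

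Among other matrix proteoglycans, 3 of 20 were tested and 2 were lower (66.7% of those tested, against 39.3% of all tested genes called). *SRGN*, which encodes the intracellular proteoglycan serglycin, had a log2 fold change of -1.03, from 8.91, 9.23 and 6.92 TPM in WT to 3.38, 3.79 and 3.56 TPM in DKK1-SE-KO. In hyaluronan metabolism and receptors, 3 of 7 tested genes were called, all of them lower (42.9%, near the 39.3% of all tested genes). *HMMR*, a hyaluronan receptor that also acts in mitosis, had a log2 fold change of -1.0. Other genes of collagen modification had 6 higher and 7 lower of 19 (68.4% called), and without WT replicate 2 a total of 7 were called. *PXDN*, which encodes the peroxidasin that crosslinks collagen IV, had a log2 fold change of 1.58, *P3H3*, of the prolyl 3-hydroxylase family, -1.28, and *COLGALT2*, a collagen galactosyltransferase, -1.07. TPM of *PXDN* overlapped, at 1.60, 0.46 and 0.63 in WT and 1.36, 1.97 and 2.02 in DKK1-SE-KO. In glycosaminoglycan assembly, 7 were higher and 6 lower of 24 (54.2% called). *DSE*, which encodes the epimerase that turns chondroitin into dermatan sulfate, had 1.48. *CSGALNACT1*, which starts chondroitin chains, had -1.56, while tested genes within 5 Mb of it had a median of -0.82. Adjusted *p*-values of these 7 genes were between 3.39e-05 and 0.00833 in edgeR's quasi-likelihood test with Benjamini-Hochberg adjustment.

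**Figure D3:**
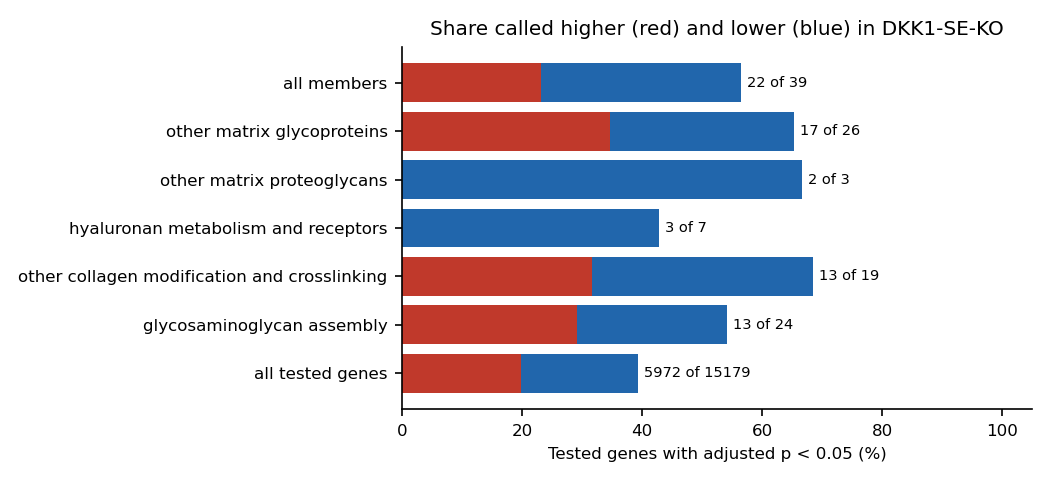
Percent of tested genes with an adjusted p-value under 0.05 (horizontal axis) for the members, 5 lists of related genes and all tested genes, red for higher and blue for lower in DKK1-SE-KO, with the counts at the bars. The members are at 22 of 39 tested and all tested genes at 5972 of 15179.

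Markers of the cell types that can make matrix were set beside these values. All 7 epithelial markers were tested, and their summed TPM was 1902, 1955 and 1995 in WT and 3192, 3129 and 2710.3 in DKK1-SE-KO, led by the keratin gene *KRT8* with 936, 948 and 988 and 1649, 1668 and 1362. Keratin transcripts typical of epithelial cells were thus abundant in all samples, but the list did not move as 1. *KRT8*, *KRT18* and *KRT19* were higher, *EPCAM* and *SOX9* were lower, and *KRT7* and *CDH1* were not called (71.4% called, against 39.3% of all tested genes). Mean TPM of *EPCAM* went from 4.17 in WT to 2.58 in DKK1-SE-KO and that of *SOX9* from 64.3 to 44.3. *CDH1* was low in both groups, at 1.59 and 1.35. Of 10 markers of fibroblasts and stellate cells, the main source of *POSTN*, *DCN* and *LUM* in the pancreas, 3 were tested. The summed TPM of all 10 was 8.55, 9.68 and 7.76 in WT and 7.79, 11.8 and 10.8 in DKK1-SE-KO, which overlapped. By the mean over all 6 samples the most abundant was *THY1*, with 2.56, 2.03 and 3.91 TPM in WT and 2.06, 5.17 and 2.54 TPM in DKK1-SE-KO, while *RGS5* led by a little in WT and *COL3A1* in DKK1-SE-KO. *COL3A1*, the called gene of this list, had 1.69, 1.54 and 1.50 TPM in WT and 3.62, 3.61 and 4.07 TPM in DKK1-SE-KO. Every edited sample was above WT, with a log2 fold change of 1.42 (SE 0.141, adjusted p = 3.68e-05 in edgeR's quasi-likelihood test with Benjamini-Hochberg adjustment). *PDPN*, not tested, had 0 counts in WT and 24, 6 and 11 in DKK1-SE-KO, and *DES*, also not tested, had 3, 4 and 5 counts in WT and 0, 0 and 1 in DKK1-SE-KO. *RGS5* had a log2 fold change of -0.58 and was not called, and *FAP* and *COL1A2* had 0 counts in all 6 samples. The part of these markers in the values of the members was not tested. Of 6 endothelial markers, *PECAM1*, *CDH5* and *TEK* had at most 3 counts in any sample, and the summed TPM of 2.62, 2.57 and 2.43 in WT and 0.58, 0.680 and 0.620 in DKK1-SE-KO was led by *KDR*, at 2.51, 2.47 and 2.08 and 0.39, 0.33 and 0.55. Of 6 immune markers, *PTPRC*, *CD3E*, *MS4A1* and *LYZ* had at most 3 counts in any sample, and the sum of 43.9, 41.2 and 47.0 TPM in WT and 69.0, 66.5 and 68.7 TPM in DKK1-SE-KO was nearly all *CD68*, at 43.2, 40.9 and 46.5 and 67.8, 64.8 and 67.1, a lysosomal gene that many cells express. *CD14* had 0.62, 0.28 and 0.51 TPM in WT and 1.07, 1.54 and 1.46 TPM in DKK1-SE-KO, high in all edited samples, with a log2 fold change of 1.76 (SE 0.398), and both *CD68* and *CD14* were called higher. None of the 7 acinar and endocrine markers passed 3 counts, and the most abundant, *GCG*, was seen in WT replicate 3 alone.

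Reads of overlapping genes limit some values. Other genes overlap most of the tested members, *HAS2-AS1*, *THBS1-AS1*, *VCAN-AS1* and *LOXL1-AS1* among them, and the strand setting of the counting was not stated. Fold changes also followed the GC content of the genes across the table (Spearman rho 0.404), and a correction for it ended the call of *PLOD2*, gave *LTBP3* and *AGRN* a call with the sign turned, and turned the sign of *TNXB*, *FBLN1*, *HSPG2* and *P4HA1*, which were called in neither fit.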

How the data were processed

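Stranded mRNA libraries of 3 WT and 3 DKK1-SE-KO samples of PANC-1 were sequenced. The expected counts per gene, 6 columns not normalized, were deposited by the authors per the file headers, and they sum to 16475810 to 21822314 per sample. TPM, also made by the authors on a commercial cloud platform per the labels, were deposited beside them. The labels give the genome build hg38 and name neither the aligner, the counter nor the annotation. The deposited fold changes, *p*-values, adjusted *p*-values and calls of the authors were not used.

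Expected counts were rounded, filtered with filterByExpr (minimum count 10), scaled with TMM factors and tested with edgeR 4.0.16 in R 4.3.3, by group with no covariate, for 15179 of 62703 genes. A gene was called at a Benjamini-Hochberg adjusted *p*-value under 0.05. SE is the absolute log2 fold change over the square root of F. Alternatives were RLE factors, library size alone, DESeq2 1.42.0, no count filter, a replicate block, a GC-content offset in 40 bins with and without that block, limma 3.58.1 on log2(TPM + 1) and log2(TPM + 0.1), each sample left out, the limits of the study as a log2 and, added later, as a linear fold, and a mean TPM of at least 1. Fitting was checked on simulated counts, where edgeR recovered 20 of 50 genes changed 1.5-fold and 50 of 50 changed 2-fold. A gene that was not called can thus still differ by a fold of that smaller size. Exact counting intervals came from scipy 1.17.1. Figures were drawn with matplotlib 3.10.9.

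All 52 members were found by symbol in the table. Members and lists were chosen with earlier results of these data known. Values per sample are given for called members with an absolute log2 fold change of 1 or more and no overlap of TPM, for the 5 most abundant other called members, and for members that an alternative moved across the threshold, the last chosen after the values were seen. They are also given for some members outside this rule, such as *HSPG2*, *TNXB*, *LOXL1*, *MATN2* and *P4HA2*, as description only. In each related list up to 3 genes per direction were named, those with the smallest *p*-value among called genes with an absolute log2 fold change of 1 or more. In marker lists the most abundant gene was named, and others after their values were seen. Promoters were RefSeq windows of 300 bases.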

Additional observations from a re-analysis of the deposited data

How the results depend on the processing

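Of the 22 called members, 19 kept their direction and their call in all 15 alternatives that refit the data, the 16 with large changes among them. *THBS1*, *NID1* and *PLOD2* lost it in at least 1. Of 585 values of single members under these alternatives, 551 kept their side of the threshold, 13 lost a call, 18 gained one and 3 gained one with the sign turned. Of the 551, 523 also kept their sign, and 28 values of 10 uncalled members did not, for which no direction is read. Those with a call and the sign turned were *LTBP3* with a GC-content offset (-0.32) and with that offset and the replicate block (-0.32), and *AGRN* with the offset (-0.22). The cause was not tested.

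Between 20 and 27 members were called over these alternatives, and 20 to 24 when a sample was left out. At the limits of the study 14 members and 1314 genes of all were called. With those limits read as a linear fold, added after the data were seen, 24 members and 7227 genes were. With the replicate block, which pairs samples by number, 21 members, 4981 genes of all and 0 linkers of basement membranes were called, where edgeR without the block called 1 linker. Deviations of samples with the same number correlated at -0.123, -0.074 and -0.109, so the numbers show no pairing. With a GC-content offset, 2 linkers of basement membranes, 4 genes of crosslinking and 5 of hyaluronan metabolism were called, and with the offset and the block 4 and 5 of the last 2 lists. With limma on log2(TPM + 1) or log2(TPM + 0.1), other matrix glycoproteins had 11 and 10 calls and other collagen modification 8 and 8, and glycosaminoglycan assembly had 8 on the last scale. Calls over all genes fell as well in these fits, to 4161 and 4125 of 15179. On these scales 35.8% and 36.2% of called genes were higher, against 50.5% on counts, and the median log2 fold change of all genes was -0.08 and -0.11, against 0.03.

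With each sample left out in turn, 0 to 1 linkers of basement membranes, 1 to 2 genes of crosslinking and 7 to 16 of other collagen modification were called, and 4095 to 7558 genes of all. Leaving out a sample left 2 against 3. On the CPM scale 26 members did not overlap between groups, as on the TPM scale, and 24 of them on both. *LOXL3* and *MXRA7* were apart on the CPM scale alone, and *LOXL4* and *PLOD1* on the TPM scale alone. No share of all tested genes is given here for the CPM scale, so these counts only describe the members. The 13 members that the count filter left out entered the fits with DESeq2 and without the filter, where the 22 and 23 called members were all among the other 39. Their depth of a few counts per sample limits what a test can detect.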

Other observations

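Some abundant genes of the lists around the members, chosen after their values were seen, were not called. *CCN1* and *CCN2*, matricellular genes of the CCN family and known targets of YAP and TEAD, had 789, 869.5 and 897 TPM and 352, 389 and 409 TPM in WT. In DKK1-SE-KO they had 826, 748 and 799.7 TPM and 425, 362 and 431 TPM, and both pairs of groups overlapped in TPM. The CPM of *CCN2* did not overlap, at 569, 618 and 650 in WT and 793, 669 and 704 in DKK1-SE-KO. The 95% confidence intervals of the log2 fold change were -0.19 to 0.27 for *CCN1* and 0.00 to 0.47 for *CCN2*. *CD44*, which encodes the main hyaluronan receptor, had 858, 865 and 839 TPM in WT and 764, 725 and 819.7 TPM in DKK1-SE-KO. All of its edited samples were below WT, and its log2 fold change was -0.18 (95% confidence interval -0.38 to 0.03), which was not called. *LTBP4* had 39.1, 42.4 and 48.5 TPM in WT and 37.5, 39.9 and 34.4 TPM in DKK1-SE-KO, with overlap, where *LTBP1* and *LTBP2* fell.

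Other genes of these lists were called, and their values were picked in the same way. *HAPLN3*, which encodes a hyaluronan and proteoglycan link protein, had 55.6, 55.6 and 54.5 TPM in WT and 29.0, 28.0 and 27.6 TPM in DKK1-SE-KO. Its groups were tight and far apart, with a log2 fold change of -0.88 (SE 0.121). *TGM2*, a transglutaminase that crosslinks proteins, had 23.6, 24.0 and 25.5 TPM in WT and 44.1, 39.3 and 38.7 TPM in DKK1-SE-KO. All edited samples were high, and the log2 fold change was 0.92 (SE 0.117).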
